A study of Rattus norvegicus with 7 samples.

Results

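Genes of heterotrimeric G proteins, of the regulators of G protein signaling (RGS) and of the cyclic AMP (cAMP) pathway were followed in ROE2, an oral epithelial cell line of the rat, during exposure to sodium fluoride (NaF). The members were the microarray probe sets annotated to 1 gene whose symbol begins with Gna, Gnb, Gng, Rgs, Adcy, Pde, Akap, Prkac, Prkar or Creb followed by a letter or digit of those families, or with Crem, and whose log2 signal reached 6 on at least 1 array. The rule took 68 probe sets of 48 genes, out of 171 probe sets of 105 genes on the array with such a symbol, and 14473 of 31099 probe sets of all kinds passed the same signal limit and were tested.

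ROE2 is a line of epithelial-like morphology from the tongue of an 18-day-old fetus of a transgenic Wistar rat, and all groups carry the temperature-sensitive large T-antigen gene of SV40. The cells grew at 33 °C, were kept at 37 °C in medium with fetal bovine serum for 24 h, and then received 2 mM NaF for 3, 6 or 12 h or the vehicle, sterilized water. Vehicle was sampled after 3, 6 and 12 h, and a further vehicle array, which the labels call only the control, was placed at 0 h from the study's methods. Each array carried RNA pooled from 3 independent experiments, so each of the 7 conditions was measured on 1 array and no array was repeated.

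In this pathway a ligand-bound receptor loads a G protein alpha subunit with GTP, and the alpha subunit and the paired beta and gamma subunits then act on effectors until the alpha subunit hydrolyzes its GTP, a step that RGS proteins speed up. Alpha subunits of the Gs class stimulate and those of the Gi class inhibit adenylyl cyclase, the enzyme that makes cAMP, and phosphodiesterases degrade it. cAMP releases the catalytic subunits of protein kinase A (PKA) from its regulatory subunits, A-kinase anchoring proteins (AKAPs) hold the kinase at particular places in the cell, and the transcription factors CREB and CREM bind cAMP response elements in target genes. Fluoride, as a complex with aluminium or magnesium, is a textbook activator of G protein alpha subunits in broken-cell assays.

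The 7 arrays had median log2 signals between 5.32 and 5.35. The epithelial identity was checked with markers: 9 of 10 epithelial genes passed the signal limit, whereas none of the fibroblast, leukocyte, endothelial and glial genes looked at did, and of 5 muscle genes Acta1 alone passed. The gap between the 3' and 5' probe sets of beta-actin, a measure of RNA length, ran from 1.53 to 2.83 on the log2 scale among the vehicle arrays, with the 3 h vehicle array widest, and from 1.77 to 2.39 among the NaF arrays. In such bulk RNA, fewer cells that express a gene and less of its RNA per cell cannot be told apart.

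The change of the members grew with time. The mean of the 4 vehicle arrays was the baseline of each NaF array in limma, which tested all 14473 probe sets with Benjamini-Hochberg adjustment, and a member was called at an adjusted p under 0.05. At 3 h no member was higher, where 2.09% of all tested probe sets were, and 3 were lower, where 4.35% were. The 0 came beside 2 members higher and 12 lower at an unadjusted p under 0.05. For that cut the share over all tested probe sets was not computed, so no direction is read from these counts. At 6 h 8 members were higher and 13 lower, against 14.2% and 18.8% of all tested. At 12 h 22 members (32.4%) were higher and 25 (36.8%) lower, against 26.9% and 28.5% of all tested. These shares are a description with no test of the list. The lone NaF array was assumed in this fit to vary like the vehicle arrays, whose SD had a median of 0.08 over the members and 0.09 over all tested, on the log2 scale. Without the 6 h vehicle array, the members called higher at 12 h numbered 14, those called higher at 6 h numbered 4, and none was called lower at 3 h, where without the vehicle array of 0 or 3 h 1 member was. With 1 value per gene, 13 of 48 values were higher and 18 lower at 12 h. Pde4dip, Creb1 1369708_a_at and Gng5 1398818_at, all among the 22 higher, passed the signal limit on NaF arrays only. Akap12 1368868_at, among the 25 lower, passed it on vehicle arrays only. No excess of members is therefore read from the 12 h shares.

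**Figure D1:**
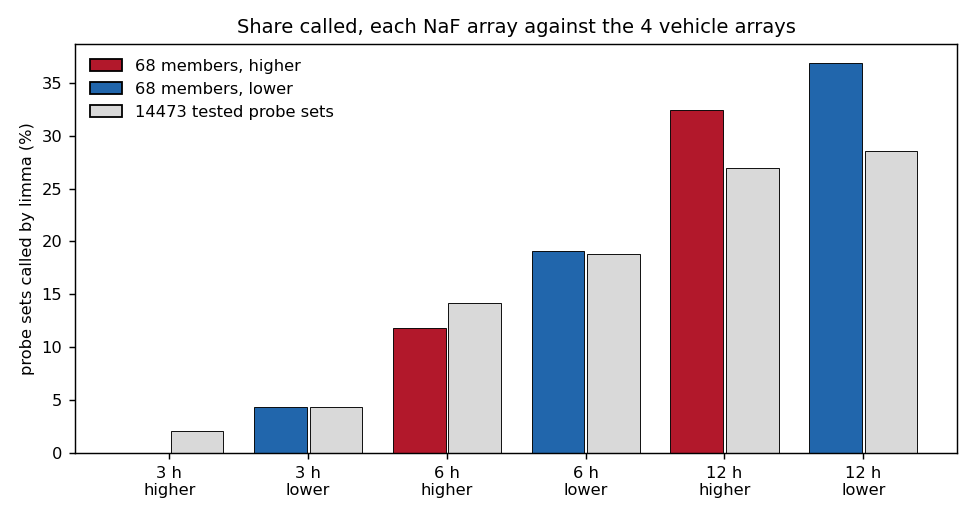
Percent of probe sets called higher or lower by limma at 3, 6 and 12 h of 2 mM NaF, each NaF array against the 4 vehicle arrays. Colored bars are the 68 members and grey bars all 14473 tested probe sets; at 12 h the members reached 32.4% higher and 36.8% lower.

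With the vehicle array of equal time as the baseline, the median difference of the members was -0.04 at 3 h, -0.01 at 6 h and -0.17 at 12 h on the log2 scale, and over all tested probe sets it was -0.03, 0.00 and 0.00. The median size of the difference, without its sign, was 0.14, 0.25 and 0.42 for the members and 0.13, 0.21 and 0.35 for all tested. A factor of 2.5, the size of change used in the study, was passed by no member at 3 h, where 0.297% of all tested were above and 0.401% below it. At 6 h no member was above it and 1 was below it, Pde7a, against 1.31% of all tested in each direction. At 12 h 3 probe sets of 2 genes were above it, Rgs2 with 2 and Pde4dip with 1, against 2.6% of all tested, and 2 were below it, Akap12 and Gng12, against 2.17%.

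**Figure D2:**
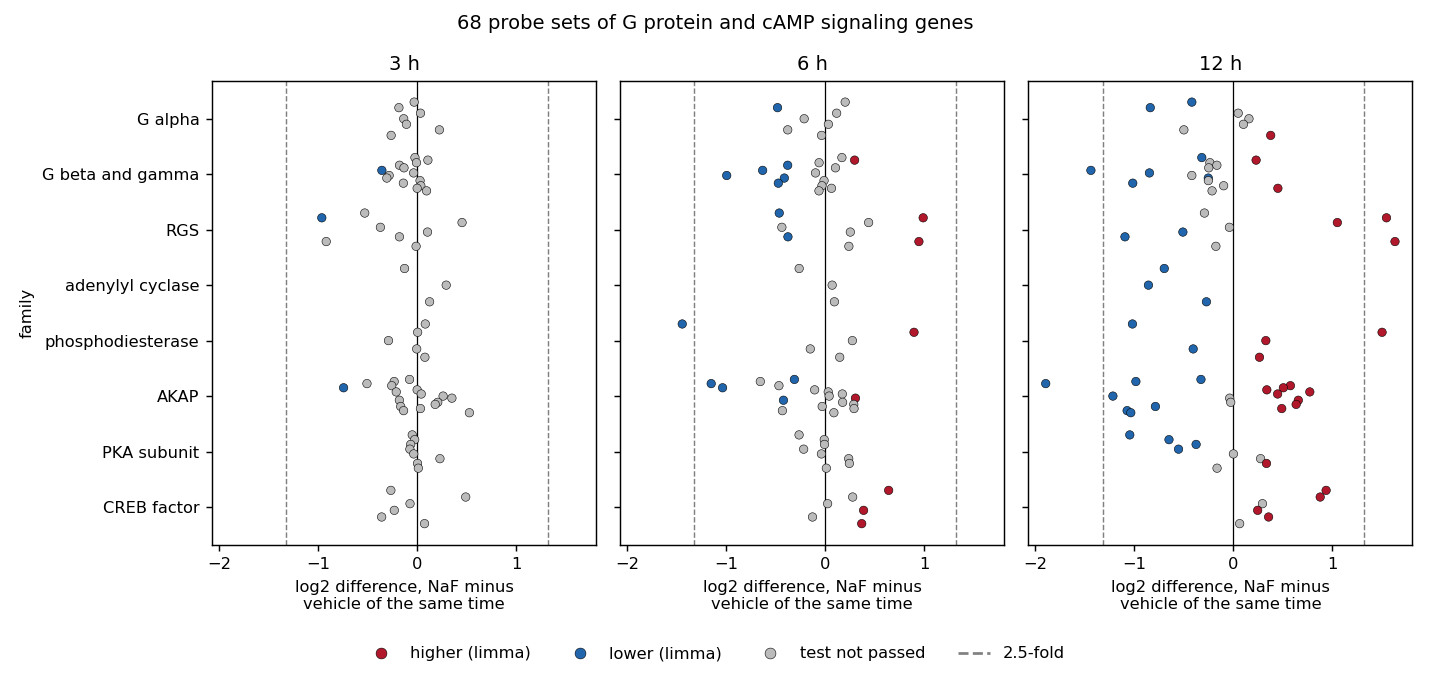
Log2 difference of each of the 68 members between NaF and vehicle of equal time, by family, at 3, 6 and 12 h. Red and blue points were called higher or lower by limma, grey points were not, and dashed lines mark 2.5-fold; the points spread out from 3 to 12 h, from a median size of 0.14 to one of 0.42.

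At 12 h 1 of 7 alpha subunit probe sets from 6 genes was higher and 2 fell, 3 calls in all where 55.4% of all tested probe sets were called in either direction, and the median same-time difference was 0.05. Gnas, the Gs subunit that stimulates adenylyl cyclase, read 12.82, 12.79, 12.84 and 12.82 in vehicle at 0, 3, 6 and 12 h and 12.83, 12.95 and 12.87 in NaF at 3, 6 and 12 h. The groups of Gnas overlapped, and no test was passed at any time (log2 change at 12 h 0.05, SE 0.06, limma adjusted p = 0.536). Both alpha subunits that fell at 12 h belong to the class that inhibits adenylyl cyclase.

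Gnaz, the Gz subunit, read 7.75, 7.93, 7.93 and 8.09 in vehicle and 7.75, 7.44 and 7.25 in NaF on the probe set 1368185_at. Every NaF array lay below the lowest vehicle array, although at 3 h the margin vanishes in rounding. The probe set fell by 0.68 at 12 h (SE 0.13, limma adjusted p = 0.0075), and a second Gnaz probe set did not pass (-0.40, limma adjusted p = 0.101). Gnai2, a Gi subunit, had 10.37, 10.43, 10.31 and 10.36 in vehicle and 10.40, 10.51 and 9.94 in NaF. Gnai2 was thus low on the 12 h NaF array alone, where the fit gave -0.43 (SE 0.07, limma adjusted p = 0.0048). Gna11, of the Gq class that activates phospholipase C, rose by 0.34 at 12 h (SE 0.09, limma adjusted p = 0.025), a call lost without the vehicle array of 0, 6 or 12 h. Gna12, of the G12/13 class, and Gna15, a further subunit of the Gq class, were called at no time.

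The symbols of beta and gamma subunits gave 14 probe sets of 9 genes, Gnb1l included, which only shares the stem. At 12 h 2 were higher and 5 lower, against 26.9% and 28.5% of all tested, with a median same-time difference of -0.25. Of the 2 higher, Gng5 1398818_at reached the signal limit on NaF arrays only, which favored its being counted as higher. The gamma subunit Gng12 carried the largest change of this family, and both of its probe sets fell. The probe set 1377739_at read 9.78, 9.76, 9.73 and 9.75 in vehicle and 9.40, 9.10 and 8.31 in NaF at 3, 6 and 12 h. The probe set 1392471_at read 10.32, 10.32, 10.30 and 10.19 in vehicle and 10.18, 9.82 and 9.17 in NaF. All NaF values of both probe sets were below all their vehicle values, and each was lower than at the time before. Against the 12 h vehicle array the differences were -1.44, a factor of 2.71, and -1.02, a factor of 2.02. The fit gave -1.45 (SE 0.06, limma adjusted p = 0.0003) and -1.11 (SE 0.08, limma adjusted p = 0.0005) at 12 h. The call of 1377739_at at 3 h (-0.35, limma adjusted p = 0.034) was lost when any 1 of the 4 vehicle arrays was left out.

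Gng13, a gamma subunit known from taste cells, read 6.06, 6.09, 6.11 and 6.19 in vehicle and 6.06, 6.01 and 5.35 in NaF, and fell by 0.77 at 12 h (SE 0.08, limma adjusted p = 0.001). This probe set was among the 3 members just inside the signal limit, with highest signals of 6.12 for Gnb3, 6.19 for Gng5 and 6.19 for Gng13. Just outside it were Pde1b at 5.97, Creb3l3 at 5.95 and a further probe set of Crem at 5.90. Gng5, a widely expressed gamma subunit, read on 1387342_at 12.40, 12.40, 12.45 and 12.39 in vehicle and 12.10, 12.03 and 12.14 in NaF. All 3 NaF values were below the vehicle values, and this probe set was lower at 6 h (-0.38, limma adjusted p = 0.0095) as well as at 12 h (-0.27, limma adjusted p = 0.016).

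The second Gng5 probe set, 1398818_at, moved the other way at 12 h, from 5.74 in vehicle to 6.19 in NaF (0.46 in the fit, limma adjusted p = 0.0036), and it reached the signal limit on NaF arrays only. Gnb1, a widely expressed beta subunit, was split in the same manner, with 1 of 3 probe sets lower at 12 h (-0.30), 1 higher (0.29, lost without the 6 h vehicle array) and 1 that did not pass (-0.04). Gnb4 was lower at 6 h (-0.42, limma adjusted p = 0.037), a call lost without the vehicle array of 0, 3 or 6 h. Gnb1l, a WD repeat protein that shares the symbol's stem with the beta subunits, fell by 0.97 at 6 h (SE 0.12, limma adjusted p = 0.0037), while at 12 h its change of -0.32 did not pass. Gnb2, Gnb3 and Gng10 were called at no time.

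RGS proteins shorten the active state of alpha subunits. By 12 h 3 of their 8 probe sets had risen and 2 had fallen, against 26.9% and 28.5% of all tested. Both probe sets of Rgs2 were among those that rose, and those that fell were both of Rgs12. The median same-time difference was -0.11. Rgs2, which acts mainly on the Gq class and also inhibits some adenylyl cyclases, had the largest upward difference of all members from vehicle at 12 h, although against the mean of all vehicle arrays Pde4dip rose more. Its probe set 1387074_at read 9.81, 9.87, 9.65 and 9.28 in vehicle at 0, 3, 6 and 12 h and 8.95, 10.60 and 10.91 in NaF at 3, 6 and 12 h. The probe set 1368144_at read 8.52, 8.48, 8.46 and 8.10 in vehicle and 7.51, 9.45 and 9.65 in NaF. On both, the 3 h NaF array was the lowest and the 6 and 12 h NaF arrays were the highest of the 7, so that the groups overlapped when times were pooled.

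The signal of Rgs2 also declined within vehicle, and the 12 h vehicle array was its lowest. Against that array the 12 h differences were 1.63 and 1.55, factors of 3.10 and 2.93, whereas against the mean of the 4 vehicle arrays both were 1.26, short of 2.5-fold (SE 0.23, limma adjusted p = 0.0065 and SE 0.17, limma adjusted p = 0.0024). At 6 h the fit gave 0.95 and 1.06, both called, the former not without the vehicle array of 0 or 6 h. At 3 h 1368144_at was lower (-0.88, limma adjusted p = 0.046) and 1387074_at did not pass (-0.70, limma adjusted p = 0.154), and the 3 h call was lost without the vehicle array of 0, 3 or 6 h. The change from 3 h to 12 h of NaF was 1.96 on 1387074_at (SE 0.29, limma adjusted p = 0.0053), and 2.14 on 1368144_at.

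**Figure D3:**
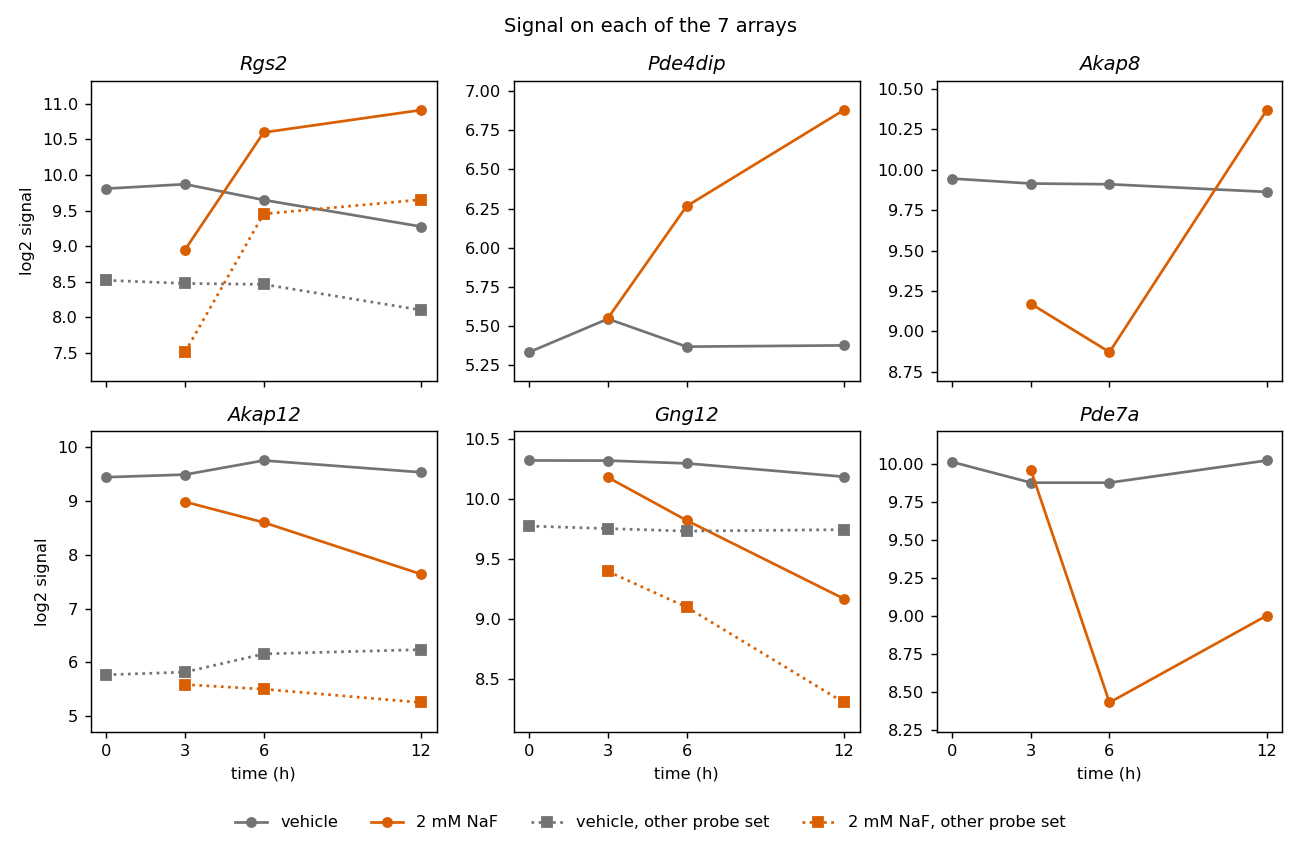
Log2 signal of 6 genes on each array against time, with vehicle in grey at 0, 3, 6 and 12 h and 2 mM NaF in orange at 3, 6 and 12 h; dotted lines show a second probe set of the gene, and each point is 1 array. Rgs2 and Akap8 start below vehicle at 3 h and end above it at 12 h, Pde4dip climbs, Akap12 and Gng12 decline at each time, and Pde7a is lowest at 6 h.

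Rgs12, a large RGS protein with several other domains, went down. Its probe set 1387066_a_at read 8.76, 8.71, 8.68 and 8.66 in vehicle and 8.54, 8.31 and 7.57 in NaF, each NaF value lower than every vehicle value. It fell by 1.14 at 12 h (SE 0.07, limma adjusted p = 0.0004), and the second Rgs12 probe set fell by 0.40 (SE 0.12, limma adjusted p = 0.038), a call lost without the vehicle array of 3, 6 or 12 h. Rgs9, best known from photoreceptors and neurons, read 6.35, 5.87, 6.22 and 6.11 in vehicle and 6.32, 6.65 and 7.16 in NaF. The NaF array of 3 h lay within the vehicle range and the later arrays above it, with a rise of 1.03 at 12 h (SE 0.18, limma adjusted p = 0.0056). Rgs3 was below vehicle on all NaF arrays and passed at 6 h (-0.56, limma adjusted p = 0.014), while Rgs10 and Rgs19 were called at no time against vehicle.

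All 3 adenylyl cyclases past the signal limit fell at 12 h, where 28.5% of all tested probe sets were lower, and none was called at 3 or 6 h, where 6.45% and 33.1% were called in either direction. The median same-time difference at 12 h was -0.70. Adcy2 read 6.79, 6.58, 6.55 and 6.58 in vehicle and 6.87, 6.62 and 5.72 in NaF. The 12 h NaF array stood below all others, and the fit gave -0.91 (SE 0.11, limma adjusted p = 0.0018). Adcy6, an isoform inhibited by calcium, fell by 0.57 (SE 0.13, limma adjusted p = 0.013) from 8.53, 8.76, 8.75 and 8.85 in vehicle to 8.15 at 12 h, with 8.63 and 8.49 at 3 and 6 h. Adcy3, known from olfactory cilia and the primary cilium, fell by 0.27 (SE 0.06, limma adjusted p = 0.013) from vehicle values between 9.69 and 9.70 to 9.42 at 12 h, and read 9.82 and 9.78 at 3 and 6 h of NaF. A further 5 cyclase genes had no probe set past the signal limit: Adcy4, Adcy5, Adcy8, Adcy9 and Adcy10.

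Symbols beginning with Pde gave 5 members, of which 3 were higher and 2 lower at 12 h, against 26.9% and 28.5% of all tested. The median same-time difference of the 5 was 0.26. Of the 3 higher, Pde4dip reached the signal limit on NaF arrays only, which favored its being counted as higher. Pde7a, an enzyme specific for cAMP, read 10.01, 9.88, 9.88 and 10.02 in vehicle and 9.96, 8.43 and 9.0 in NaF. Its 3 h NaF array lay inside the vehicle range, the 6 h array was the lowest, and the 12 h array was between them. The fit gave -1.52 at 6 h (SE 0.09, limma adjusted p = 0.0009) and still -0.94 at 12 h (SE 0.09, limma adjusted p = 0.0009). Pde4c, a further cAMP-specific enzyme, rose by 0.31 at 12 h (limma adjusted p = 0.024), a call lost without the vehicle array of 6 or 12 h.

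The other members with this prefix are not cAMP-degrading enzymes. Pde4dip, or myomegalin, is a centrosome and Golgi protein that binds a phosphodiesterase, and it read 5.33, 5.55, 5.37 and 5.38 in vehicle and 5.55, 6.27 and 6.88 in NaF. Vehicle never reached the signal limit, so that a higher NaF value was a condition of membership, and at 3 h the NaF array exceeded the highest vehicle array by less than rounding shows. Pde4dip rose by 0.86 at 6 h (SE 0.10, limma adjusted p = 0.0031) and then by 1.47 at 12 h (SE 0.10, limma adjusted p = 0.0004), and against the 12 h vehicle array the factor was 2.84. Pde6d, a carrier of prenylated proteins, fell by 0.35 at 12 h (SE 0.07, limma adjusted p = 0.0094), and Pde6g, the inhibitory subunit of the photoreceptor enzyme, rose by 0.28 (limma adjusted p = 0.025), a call lost without the vehicle array of 6 or 12 h. No probe set of Pde4a, Pde4b, Pde4d, Pde3a or Pde3b passed the signal limit.

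None of the 8 probe sets of PKA subunits was called at 3 or 6 h, where 6.45% and 33.1% of all tested were called in either direction. At 12 h 4 were lower and 1 was higher, against 28.5% and 26.9% of all tested. The median same-time difference of the family at 12 h was -0.27. Prkar2b, a type II regulatory subunit, read 8.16, 8.18, 8.09 and 7.98 in vehicle and 8.13, 7.82 and 6.94 in NaF. The 3 h NaF array was within vehicle, the 6 h array was below it and the 12 h array lowest, at -1.16 (SE 0.09, limma adjusted p = 0.0006). Prkaca, the alpha catalytic subunit, read 7.65, 7.71, 7.64 and 7.65 in vehicle and 7.68, 7.63 and 7.0 in NaF. It fell by 0.66 at 12 h (SE 0.06, limma adjusted p = 0.001), while 0.02 at 3 h and -0.03 at 6 h did not pass. Prkar2a, the other type II regulatory subunit, fell by 0.57 (SE 0.08, limma adjusted p = 0.0024).

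Prkacb, the beta catalytic subunit, was lower on 1371835_at (-0.46, limma adjusted p = 0.0077), and its second probe set had 0.26 (limma adjusted p = 0.053). Prkar1a, the type I regulatory subunit, read 11.93, 11.98, 11.98 and 11.92 in vehicle and 11.95, 11.94 and 11.93 in NaF on 1373951_at, within the vehicle range. Of its other probe sets, 1386905_at was higher at 12 h (0.43, limma adjusted p = 0.019) and 1388375_at did not pass (-0.15). The type II regulatory subunits and both catalytic subunits thus each had a lower probe set at 12 h, and type I had none.

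AKAPs were the largest family, with 17 probe sets of 10 genes. At 12 h 8 were higher and 7 lower, against 26.9% and 28.5% of all tested, with a median same-time difference of -0.03. No AKAP gene had calls in both directions at 12 h, although Akap7, Akap8, Akap10 and Akap17a had 1 member probe set each. Every probe set of Akap7, Akap11, Akap12 and Akap13 was lower, every probe set of Akap1, Akap8, Akap8l, Akap10 and Akap17a was higher, and Akap9 was not called at 12 h. Akap12, or gravin, a scaffold for PKA and protein kinase C at the cell periphery, had the largest fall of all members at 12 h. The probe set 1368869_at read 9.45, 9.49, 9.76 and 9.54 in vehicle and 8.99, 8.60 and 7.64 in NaF. All NaF values were below all vehicle values, and the 12 h difference was -1.90, a factor of 3.72. The fit gave -0.95 at 6 h (SE 0.13, limma adjusted p = 0.0049) and -1.92 at 12 h (SE 0.13, limma adjusted p = 0.0004). The second Akap12 probe set, 1368868_at, reached the signal limit on vehicle arrays only, so that a lower NaF value was built into its membership, and its change of -0.74 at 12 h does not count as support for the first.

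Over the 7 arrays, the members whose profile was most like that of Akap12 1368869_at were both Gng12 probe sets and Rgs12. Pearson's r was 0.986 for Gng12 1377739_at, 0.965 for Rgs12 1387066_a_at and 0.963 for Gng12 1392471_at, as a description over 7 arrays of which 3 are NaF arrays in a time course.

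Akap13, a large scaffold protein, showed no call until 12 h. Its probe set 1382268_at read 8.71, 8.56, 8.59 and 8.75 in vehicle and 8.82, 8.63 and 7.53 in NaF. The 3 h NaF array was the highest and the 12 h array the lowest of the 7. The fit gave -1.12 (SE 0.10, limma adjusted p = 0.0007), and the second probe set had -0.87 (SE 0.12, limma adjusted p = 0.0024). Akap11 fell on both probe sets, by 0.99 (SE 0.12, limma adjusted p = 0.0019) and by 0.33 (SE 0.08, limma adjusted p = 0.014). Akap7, a small membrane-bound anchor, fell by 0.94 (SE 0.14, limma adjusted p = 0.0035).

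Akap8, a nuclear AKAP bound to chromatin and the matrix, changed direction. It read 9.95, 9.91, 9.91 and 9.86 in vehicle, within a range far narrower than its changes, and 9.17, 8.87 and 10.37 in NaF. The NaF arrays of 3 and 6 h lay below and that of 12 h above all vehicle arrays. The fit gave -0.74 at 3 h (SE 0.07, limma adjusted p = 0.0072), -1.04 at 6 h (SE 0.07, limma adjusted p = 0.001) and 0.46 at 12 h (SE 0.07, limma adjusted p = 0.0029). The 3 h call was lost without the 6 h vehicle array. Akap8 and the Akap1 probe set 1383358_at were the 2 members called in opposite directions at 6 and 12 h. Akap1, the mitochondrial AKAP, had -0.37 at 6 h (limma adjusted p = 0.014) but 0.68 at 12 h (limma adjusted p = 0.0012) on that probe set, of which the 6 h call was lost without the 6 h vehicle array. Its other probe set rose by 0.76 at 12 h, a call lost without the vehicle array of 0 or 12 h. In all, 14 members were called in the same direction at both times. For these counts of 14 and 2 no share over all tested probe sets was computed, so they are descriptions.

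The 3 probe sets of Akap8l, a nuclear relative of Akap8, rose by 0.50, 0.75 and 0.83 at 12 h, of which the second was lost without the vehicle array of 3 or 6 h. Akap17a, a splicing regulator that binds PKA, rose by 0.82 (SE 0.11, limma adjusted p = 0.0027), and Akap10 by 0.35 (SE 0.06, limma adjusted p = 0.0055). Akap9, a centrosomal and Golgi AKAP and known partner of Pde4dip, was higher at 6 h on 1 of its 2 probe sets (0.32, limma adjusted p = 0.038), a call lost without the vehicle array of 0, 6 or 12 h.

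**Figure D4:**
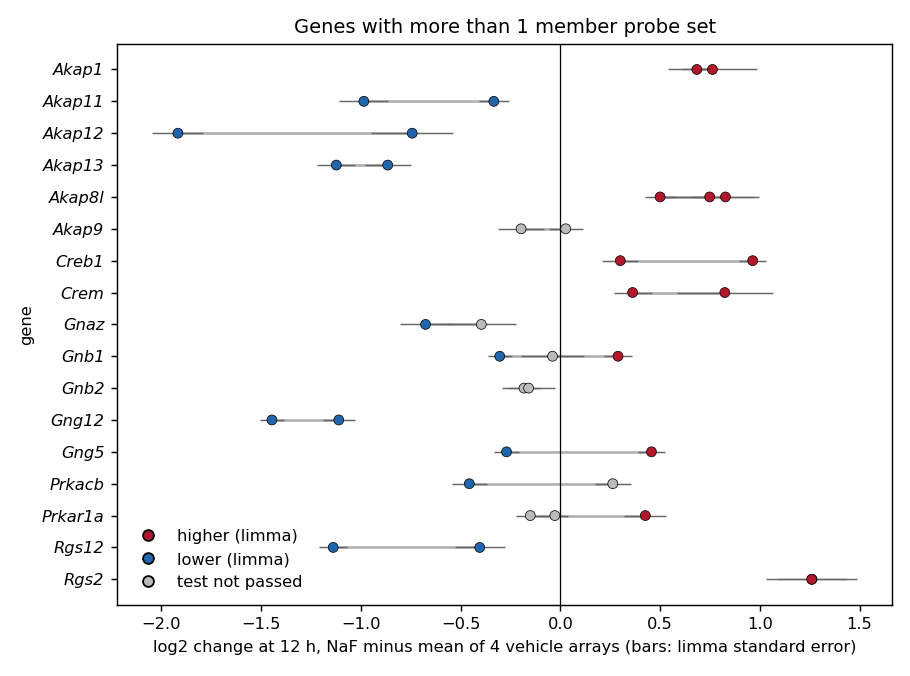
Log2 change at 12 h of NaF against the mean of the 4 vehicle arrays for the 17 genes with more than 1 member probe set; each point is a probe set, bars are limma's standard error, and red, blue and grey mark called higher, called lower and not called. All probe sets of a gene were called one way in 10 genes, and Gnb1 and Gng5 had calls in both directions. The matching share over genes outside the members was not computed, so the 10 are a description. The signal limit favored the direction of 1 probe set each of Creb1, Gng5 (past it on NaF arrays only) and Akap12 (past it on vehicle arrays only).

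Of 6 probe sets of CREB family factors, 4 were higher and none lower at 12 h, against 26.9% and 28.5% of all tested, and the median same-time difference was 0.33. Of these 4, Creb1 1369708_a_at reached the signal limit on NaF arrays only. The 2 others had 0.29 for Creb3 and 0.06 for Creb5. Creb1, the CREB protein itself, read 5.60, 5.65, 5.68 and 5.68 in vehicle and 5.38, 6.32 and 6.61 in NaF on 1369708_a_at. Its 3 h array was below and its 6 and 12 h arrays were above all vehicle arrays. The fit gave 0.67 at 6 h (SE 0.07, limma adjusted p = 0.0023) and 0.96 at 12 h (SE 0.07, limma adjusted p = 0.0005). Its second probe set, from 7.87, 8.01, 8.05 and 8.05 in vehicle to 7.78, 8.44 and 8.29 in NaF, had 0.44 at 6 h (limma adjusted p = 0.017), a call lost without the 6 h vehicle array, and 0.30 after 12 h (limma adjusted p = 0.036), and the latter call was lost without the vehicle array of 3, 6 or 12 h.

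Crem encodes activators and, from an internal start, the repressor ICER. Its probe set 1378925_at read 7.42, 7.61, 7.42 and 7.49 in vehicle and 7.25, 7.29 and 7.84 in NaF, below vehicle at 3 and 6 h and above it at 12 h. The probe set 1369738_s_at read 6.54, 5.91, 6.45 and 6.23 in vehicle and 6.40, 6.73 and 7.11 in NaF. Its 0.64 drop from the 0 h to the 3 h vehicle array was the largest shift of any member within vehicle, and the 3 h vehicle array was also the one with the widest beta-actin gap, whose part in this value was not tested. Both rose at 12 h, by 0.36 (SE 0.10, limma adjusted p = 0.023) and by 0.82 (SE 0.24, limma adjusted p = 0.032), and both calls were lost without the vehicle array of 6 or 12 h. Creb5 was higher at 6 h alone (0.42, limma adjusted p = 0.013), and Creb3, a membrane-bound factor of the endoplasmic reticulum, was called at no time.

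The promoters of the members were searched for the cAMP response element, since CREB and CREM bind it. RefSeq promoters of the build GRCr8, 250 bases before to 50 bases after each transcript start, were at hand for 37 of the 48 genes. The full element TGACGTCA, which reads the same on both strands, stood in the promoters of Crem and Akap17a, or 5.41% of these genes, and in 2% of the 27457 genes in the table. The shorter form TGACG on either strand, which every full element also contains, stood in 13 genes, or 35.1%, against 23.0% of all genes. The promoters below are those of Rgs2, the member with the largest upward difference at 12 h, and the 3 that hold the full element, and capitals mark TGACGTCA, TGACG or its reverse complement CGTCA.

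Rgs2 (chr13:58352617-58352916, minus strand): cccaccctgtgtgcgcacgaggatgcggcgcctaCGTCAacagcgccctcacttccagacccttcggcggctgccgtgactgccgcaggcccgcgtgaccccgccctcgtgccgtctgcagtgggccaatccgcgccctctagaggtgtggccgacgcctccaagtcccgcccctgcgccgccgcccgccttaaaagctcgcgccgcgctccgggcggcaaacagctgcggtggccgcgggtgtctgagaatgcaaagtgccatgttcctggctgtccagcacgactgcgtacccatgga

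Crem, start 2 (chr17:58984547-58984846, plus strand): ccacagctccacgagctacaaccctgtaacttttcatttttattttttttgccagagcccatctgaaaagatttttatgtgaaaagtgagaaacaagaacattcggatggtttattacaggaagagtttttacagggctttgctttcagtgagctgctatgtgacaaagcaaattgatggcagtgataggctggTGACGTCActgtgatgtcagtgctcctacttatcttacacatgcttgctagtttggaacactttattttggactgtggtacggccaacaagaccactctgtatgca

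Crem, start 3 (chr17:58985240-58985539, plus strand): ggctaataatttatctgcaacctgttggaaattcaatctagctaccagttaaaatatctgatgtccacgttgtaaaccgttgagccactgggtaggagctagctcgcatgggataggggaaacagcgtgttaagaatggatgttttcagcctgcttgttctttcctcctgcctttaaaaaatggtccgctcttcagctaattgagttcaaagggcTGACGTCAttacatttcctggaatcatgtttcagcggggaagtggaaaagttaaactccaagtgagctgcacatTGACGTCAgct

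Akap17a (chr12:21428198-21428497, minus strand): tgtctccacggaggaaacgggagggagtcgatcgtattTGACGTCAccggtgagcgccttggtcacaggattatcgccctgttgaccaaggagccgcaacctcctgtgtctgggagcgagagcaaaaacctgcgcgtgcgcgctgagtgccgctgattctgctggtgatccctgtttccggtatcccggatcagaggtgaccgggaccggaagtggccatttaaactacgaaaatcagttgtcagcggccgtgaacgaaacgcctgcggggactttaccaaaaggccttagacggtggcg

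Both Crem starts are on chromosome 17 within 1 gene, and start 3 holds the full element 2 times. Rgs2 holds the short form alone. A match of letters is a description of these windows. The table had no promoter for Adcy3, Adcy6, Gnai2, Gnaz, Gnb1l, Gnb3, Pde4c, Pde6d, Pde6g, Pde7a and Prkar2a.

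The difference between early and late NaF was itself tested, as the 12 h minus the 3 h NaF array in the limma fit. By it 18 members were higher at 12 h than at 3 h and 20 lower, against 22.1% and 21.1% of all tested. When the 3 NaF arrays were pooled against the 4 vehicle arrays, no member was called higher, where 3.76% of all tested were. At an unadjusted p under 0.05, 5 members were higher, and the matching share over all tested was not computed. In that fit 1 member was called lower, where 3.45% of all tested were, Gng5 1387342_at (-0.32, SE 0.07, limma adjusted p = 0.042). That call was lost when any vehicle array or the 6 h NaF array was left out. Without the 3 h NaF array the same fit called 8 members higher and 12 lower, and without the 12 h NaF array 1 higher and 6 lower. The NaF arrays lay above all vehicle arrays for 4 members, where 13.7% of all tested did, and below them for 11, where 14% did.

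The members above were Pde4dip, Gnb1, Prkacb and Akap8l with 1 probe set each. Below were both probe sets of Akap12, of which 1368868_at was favored to lie lower by the signal limit, both of Gng12 and 1 each of Akap11, Gnaz, Gnb1l, Gng5, Pde6d, Rgs3 and Rgs12. Of the 68 members, 56 passed the signal limit on every array. Pde4dip, Creb1 1369708_a_at and Gng5 1398818_at passed it on NaF arrays only, so a higher NaF value was built into their membership. Akap12 1368868_at and Gnb3 passed on vehicle arrays only, so for these 2 a lower NaF value was built in. At no time were 16 members called: Gnas, Gna12, Gna15, Gnb3, Gng10, Rgs10, Rgs19, Creb3, both probe sets of Gnb2, 2 of Prkar1a and 1 each of Gnaz, Gnb1, Prkacb and Akap9. The remaining 57 genes of these families had no probe set past the signal limit, such as the Gq subunit Gnaq, the Gi subunit Gnai1, Rgs4 and Rgs16, with highest log2 signals of 4.47, 4.44, 4.19 and 4.26.

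Upstream of the G proteins, a list of receptors was looked at by the probe set of highest mean signal per gene. Of 30 listed Gs-coupled receptors 23 had a probe set on the array, and of these 1 passed the signal limit, the VIP receptor Vipr2. It passed on the 0 h vehicle array alone, at 6.04, and read 5.84 in both vehicle and NaF at 12 h. The counts of all lists at 12 h stand beside 26.9% higher and 28.5% lower among all tested probe sets. With 1 to 19 tested genes a list, these counts are descriptions. Of the receptors coupled to Gi, Gq or G12/13, 8 were tested, with 2 higher and 3 lower at 12 h. Bdkrb2, the bradykinin B2 receptor, read 5.17, 5.56, 4.94 and 5.21 in vehicle and 6.75, 8.32 and 7.41 in NaF, and its change at 12 h was 2.19. It was tested only because its NaF arrays passed the signal limit, so its higher NaF level was a condition of its being listed, and without it 1 of 7 receptors was higher and 3 were lower. Lpar1, a receptor for lysophosphatidic acid, fell by 1.44 (SE 0.09, limma adjusted p = 0.0004), and P2ry2, a receptor for extracellular nucleotides, rose by 0.89 (SE 0.12, limma adjusted p = 0.0023).

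Receptor kinases and arrestins gave 2 higher and 1 lower of 5 tested at 12 h. Grk5 rose by 0.77, Grk6 fell by 0.85 and Grk2 rose by 0.23 (limma adjusted p = 0.0033, 0.003 and 0.045), and the Grk2 call was lost without the vehicle array of 0, 6 or 12 h. Of 10 tested modulators and chaperones of G proteins, 2 were higher and 2 lower. Gpsm1, which binds Gi alpha subunits in their GDP form, had 1.79 at 12 h, but it too passed the signal limit on NaF arrays only, and without it 1 of 9 was higher and 2 were lower. Gpsm2, its relative in spindle orientation, fell by 0.45, a call lost without the vehicle array of 3, 6 or 12 h, and Gprin1, a partner of activated Gi and Go subunits, fell by 0.95.

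Among 7 tested cAMP effectors and PKA inhibitors 1 was higher and 3 lower at 12 h. Popdc2, a cAMP-binding membrane protein, rose by 1.12 (SE 0.08, limma adjusted p = 0.0005), Rapgef3, the cAMP-activated exchange factor Epac1, fell by 0.93 (SE 0.14, limma adjusted p = 0.0036), and Pkia, a peptide inhibitor of PKA, fell by 0.82 (SE 0.16, limma adjusted p = 0.008). Of 11 tested coactivators, kinases and partners of CREB, 3 were higher and 3 lower. Crtc3, a CREB coactivator, fell by 0.77 and Crebl2 by 0.61 at 12 h, the latter not called without the 12 h vehicle array. Crebzf, a CREB-related zipper protein, was lower at 3 and 6 h and higher at 12 h (-0.62, -0.92 and 0.66, limma adjusted p = 0.035, 0.0034 and 0.0046).

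Genes known as targets of cAMP and CREB had 7 of 19 tested higher and 4 lower at 3 h, 14 higher and 2 lower at 6 h, and 13 higher and 1 lower at 12 h. The matching shares over all tested probe sets were 2.09%, 14.2% and 26.9% for higher and 4.35%, 18.8% and 28.5% for lower. The list was written with earlier results of these arrays known, so its distance from these shares is no independent evidence. The median same-time difference of this list was 0.21, 0.95 and 0.82, against -0.03, 0.00 and 0.00 over all tested probe sets. Nr4a1, Nr4a2, Nr4a3 and Fosb passed the signal limit on NaF arrays only, so that their rise was built into the list. The 15 other genes, a subset chosen after seeing the data, had 4, 10 and 11 higher at these times and 4, 2 and 1 lower, with medians of 0.14, 0.75 and 0.82. Rgs2 and Crem are themselves in it, and most of the others, such as Fos and Egr1, respond to many other stimuli too. Nr4a2, an orphan nuclear receptor, read 5.58, 5.75, 5.63 and 5.76 in vehicle and 6.48, 7.19 and 8.32 in NaF, a change of 2.63 at 12 h that, like the 2.12 of its relative Nr4a3, the signal limit had favored. Dusp1, a phosphatase of MAP kinases that passed the limit in both groups, rose by 2.02 at 12 h (SE 0.22, limma adjusted p = 0.0012). At 3 h Dusp1 already lay above every vehicle array, whereas Rgs2 lay below. Id1, the 1 gene lower at 12 h, had -1.11 at 3 h, -1.14 at 6 h and -0.83 at 12 h. Tiparp, Cited2 and Sik1 were the others lower at 3 h.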

How the data were processed

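The authors labeled cRNA from pooled total RNA, hybridized it to rat genome GeneChip arrays and analyzed the scans in GeneSpring GX; how the signals were normalized is not given in the sources used here. What was deposited is 1 log2 signal for each probe set and array, used here unchanged. Symbols came from the platform annotation, which gave 1 symbol to 20832 of 31099 probe sets, several to 436, which were named for no gene, and none to 9831. Control probe sets (57) were left out, and the 14473 others with a log2 signal of 6 or more on any array were tested. Detection calls were not used.

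limma 3.58.1 in R 4.3.3 (lmFit, eBayes) set each NaF array against the averaged 4 vehicle arrays (3 residual and 2.49 prior degrees of freedom), and the 3 NaF arrays against the 4 vehicle arrays (5 and 2.72), with Benjamini-Hochberg adjustment over all tested probe sets and a threshold of 0.05. P-values therefore rest on the spread between vehicle arrays of different times, and the small number of arrays limits precision. Same-time differences of single arrays had no test. The script was tested on simulated data.

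Members and lists were chosen with earlier results of these data known. Named genes were those called and past 2.5-fold, the 3 largest called changes at 12 h and the highest vehicle signal in each family, and the 3 largest called changes in each pathway list; further members were named to account for every probe set. Alternatives were other signal limits, median centering, quantile normalization, a variance trend, 1 value per gene, time as a block, another baseline, 2-fold, and each array left out.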

Additional observations from a re-analysis of the deposited data

Results flagged for a closer look

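Among the 27 named member genes, 1 had a vehicle array that stood apart. Adcy2 read 6.79 in vehicle at 0 h and between 6.55 and 6.58 on the others, a gap of 0.893 of the whole range, above the critical value of Dixon's test for 4 samples. Chance flags about 1 in 20 groups.

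The limma comparison of the 12 h with the 3 h NaF array found a different effect at these times for 20 of the 27 genes, 7 higher and 13 lower at 12 h, each by its probe set of highest signal, where 22.1% and 21.1% of all tested probe sets were. Most of the 27 genes were named for a large change at 12 h, so this count was largely fixed by their choice. Higher at 12 h were Rgs2 (1.96), Pde4dip (1.33), Akap8 (1.20), Rgs9 (0.84), Crem (0.60), Creb1 (0.52) and Gna11 (0.49) on the log2 scale. Lower were Akap12 (-1.35), Akap13 (-1.32), Prkar2b (-1.19), Adcy2 (-1.15), Gng12 (-1.01), Rgs12 (-0.97), Pde7a (-0.96), Gng13 (-0.71), Prkaca (-0.68), Prkar2a (-0.55), Gnai2 (-0.46), Adcy3 (-0.40) and Pde6d (-0.31). Each time had 1 NaF array, whose spread was taken from vehicle.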

How the results depend on the processing

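Of 487 values of named genes under the alternatives, 451 kept their direction and side of the threshold, or for the untested baseline their size; 22 no longer passed, 12 moved by more than the spread of vehicle and 2 changed sign. With 1 value per gene, Gng5 turned to 0.0933 and Prkar1a to 0.0823 at 12 h, since their probe sets differ in sign. The counts of members called (in the report 3 lower at 3 h, 8 higher and 13 lower at 6 h, 22 higher at 12 h) moved as follows. Lower at 3 h were 5 with a stricter signal filter, 1 with no filter, 5 with a variance trend, 1 with 1 value per gene and 0 to 2 leaving out a vehicle array. Higher at 6 h were 5 with no filter, 5 with 1 value per gene and 4 to 8 leaving out an array, and lower at 6 h were 8 with 1 value per gene. Higher at 12 h were 14 with no filter, 13 with 1 value per gene and 14 to 21 leaving out an array. With 1 value per gene there were 48 values in place of 68, and for the other settings the cause was not tested.

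With the 3 NaF against the 4 vehicle arrays, lower were 2 with the stricter filter, 0 with no filter, 2 with quantile normalization, 2 with a variance trend, 0 with time as a block over the 3 pairs of arrays, and 0 to 12 leaving out an array, and higher were 0 to 8 leaving out an array. At 2-fold in place of 2.5-fold 3 members were lower at 6 h and 9 at 12 h, and with the vehicle mean as baseline 1 was past 2.5-fold higher at 12 h. Other counts stayed within 1.5 times. Leaving out every vehicle array in turn kept 13 of 21 calls at 6 h, 36 of 47 at 12 h and 0 of 3 at 3 h. No NaF array could be left out of a comparison at 1 time. Apart from the block for time, no paired analysis was possible, because each condition was measured on 1 array of pooled RNA.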
